A study of Mus musculus with 12 samples.

Results

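Basal keratinocytes of mouse back skin that carry CD34, a surface protein of hair follicle bulge stem cells, were compared with the basal keratinocytes left after CD34+ cells and Gata6 reporter cells were taken out. The samples were chosen by their labels alone: 3 arrays of CD34 ITGA6 double positive cells and 3 of ITGA6 positive cells, together 6 of the 12 arrays of the study. All cells came from the epidermis of the back skin of female Gata6-mTomato reporter mice on a C57BL6/CBA background, in telogen, when hair follicles rest; animals were matched for age and sex, and no age was given in the labels. Cells were separated by fluorescence-activated sorting, and both populations compared here were without the Gata6 reporter. The other arrays hold Gata6+Itga6+ and Gata6+Itga6- cells of the same mouse line and served here to estimate the spread between replicates. The 3 samples of each population are called biological replicates in the labels, which do not say how many animals gave 1 sample.

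The bulge is the part of the permanent hair follicle to which the arrector pili muscle attaches. Its stem cells rest through most of the hair cycle and rebuild the lower follicle when growth starts, a switch in which Wnt signals promote and BMP signals oppose activation. The remaining Itga6+ cells are defined by what they lack and can hold interfollicular basal cells together with basal cells of other follicle regions, so the control is a mixture. In sorted populations, fewer cells of a type and less RNA per cell cannot be told apart.

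Expression is given as a level, the log2 of the deposited intensity plus 1, with 1 level per gene from the median of its probe sets on Affymetrix mouse exon arrays. A change is the level in CD34+ cells minus that in remaining basal cells, with the standard error (SE) of a linear model fitted with limma to all 12 arrays, and a call needed a p under 0.05 after Benjamini-Hochberg adjustment across 17853 genes; every adjusted p below comes from that limma fit. Levels under 2.46, below which 95% of the population means of 1144 olfactory and vomeronasal receptor genes lay, were treated as silent. Where the lower of both means was under it, the fold was taken against 2.46 and is written "at least". Levels of different genes are not comparable, since probes differ.

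The sort genes were measured first. Cd34 stood at 7.94, 7.92 and 7.98 in CD34+ cells and at 1.48, 1.79 and 1.70 in remaining basal cells, at least 44.9-fold higher (adjusted p = 7e-09). Itga6, the integrin subunit on which both populations were sorted, was at 6.37, 6.75 and 7.16 against 7.33, 7.50 and 8.17 (change -0.91, SE 0.26, adjusted p = 0.0808). The 3 CD34+ arrays lay under the 3 others for Itga6, at 18 of its 25 probe sets, but the difference did not pass the test. Gata6 was at 2.61, 3.17 and 2.75 against 2.74, 2.38 and 3.07, with overlapping groups.

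Markers of the follicle and of the epidermis were set against the labels. Of 9 bulge markers, Krt24, Lhx2, Nfatc1, Lgr5, Tbx1 and Sox9 were called higher in CD34+ cells, Foxc1 was not called, and Tcf7l1 was not analysed here. Krt15, a keratin used as a bulge marker, was at 9.92, 9.95 and 9.96 in CD34+ cells and at 9.66, 9.75 and 9.92 in remaining basal cells (change 0.16, SE 0.11, adjusted p = 0.554), so it was high in both. The pan-basal genes Krt5, Krt14 and Trp63 differed by -0.08, -0.25 and -0.05, with none called. Ly6a, the gene of the interfollicular surface protein Sca-1, was lower in CD34+ cells by 3.77 (SE 0.38). The upper follicle markers Krt79, Lrig1, Plet1 and Lgr6 were not called. Of the markers given in this paragraph, those that passed the test did so in the direction of the bulge label. With the brightest probe set Krt24, Lgr5 and Tbx1 were not called (adjusted p = 0.385, 0.799 and 0.956). Sox9 and Tbx1 were not called in every fit that left out 1 array. The longer list of 17 interfollicular basal genes, given below, had 2 called higher and 3 lower, beside 3.32% and 1.67% of all genes. Krt15 did not separate the populations. The value of Thbs1, also on the list of interfollicular basal markers, is not given here.

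Of the 17853 genes, 892 (5%) were called. In CD34+ cells 593 genes (3.32%) were higher and 299 (1.67%) lower, and 701 of the 892 differed at least 2-fold, 466 higher (2.61% of all genes) and 235 lower (1.32%). List counts below are read beside the shares of 3.32% and 1.67%. The arrays of both populations did not overlap at any of the 892 called genes, and at 18.8% of all genes (10.8% with CD34+ cells higher, 8.02% lower). In at least 1 of both populations, 840 of the 892 had a mean over the silent level, and the rest were under it in both. Correlations of array levels over all genes ran from 0.936 to 0.945 within CD34+ cells, from 0.935 to 0.939 within remaining basal cells and from 0.858 to 0.883 between them. Higher genes made up 66.5% of those called, but 52.8% after quantile normalization (612 higher, 548 lower) and 51.3% with array brightness as a covariate (462 higher, 439 lower), so the excess of higher genes depended on scaling. Of the 892 genes, 537 were called in every one of the 12 fits that left out 1 array, and 535 were not called when the brightest probe set stood for a gene in place of the median of all its probe sets.

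**Figure D1:**
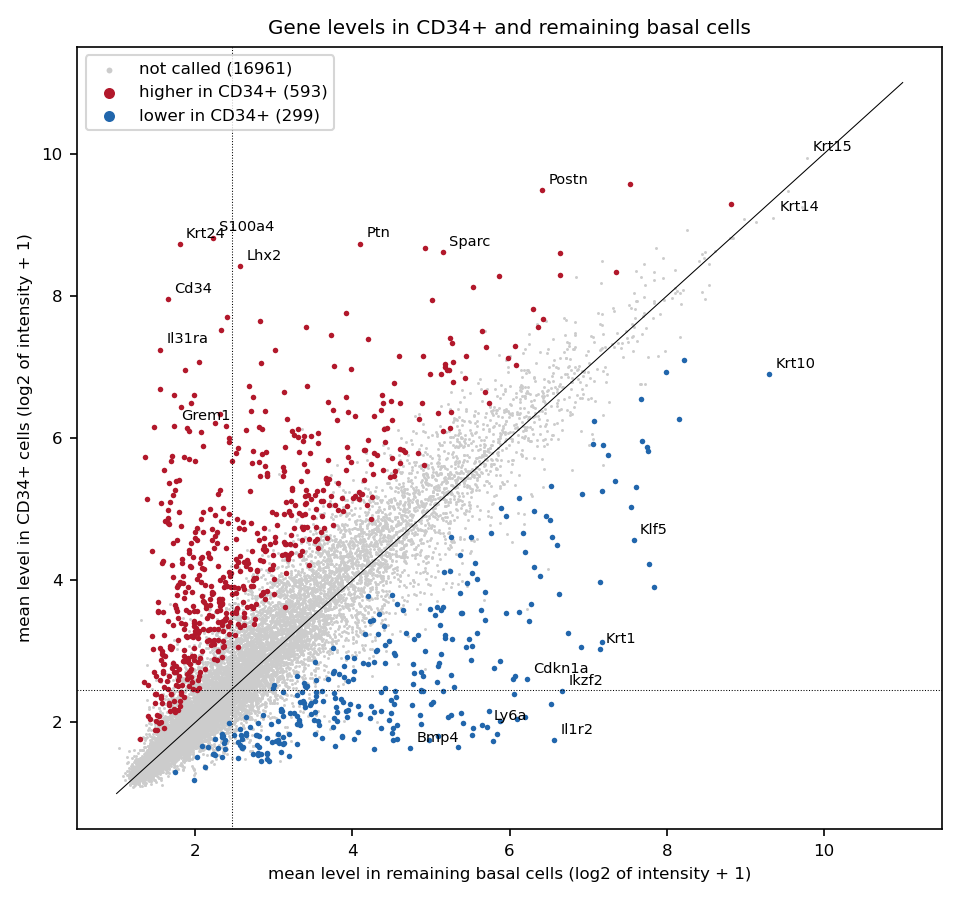
Mean level of each of 17853 genes in remaining basal cells (horizontal axis) and in CD34+ cells (vertical axis), both as log2 of intensity plus 1; each point is 1 gene and each mean covers 3 arrays. The 593 genes called higher are red and the 299 called lower are blue, dotted lines mark the silent level of 2.46, and Krt15 and Krt14 lie close to the line of equal levels.

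Krt24, a type I keratin, had the largest fitted change, against values under the silent level. Its level was 8.48, 8.77 and 8.93 in CD34+ cells and 2.12, 1.48 and 1.81 in remaining basal cells, at least 76.9-fold higher (adjusted p = 3.3e-07). The groups were separated at 10 of its 11 probe sets, although its brightest probe set alone gave a change of 0.53 (adjusted p = 0.385). S100a4, a small calcium-binding protein, was at 8.85, 8.66 and 8.95 against 1.53, 2.74 and 2.40, at least 82-fold higher. Lhx2, a LIM homeodomain transcription factor of follicle progenitors, was at 8.24, 8.25 and 8.75 against 2.81, 2.30 and 2.61, or 57.2-fold. Both were called with and without each array.

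The 15 largest rises by fitted change also held surface and secreted proteins. Il31ra, a subunit of the receptor for the itch cytokine interleukin 31, was at 7.59, 6.73 and 7.41 in CD34+ cells against 1.65, 1.63 and 1.39, and all 23 of its probe sets were separated. It was at least 27.5-fold higher (change 5.69, SE 0.19, adjusted p = 8.8e-08). Cd200, a surface protein that dampens myeloid cells, rose at least 33.4-fold, from 2.24, 1.97 and 2.78 to 7.91, 7.21 and 7.45. Angptl7, an angiopoietin-like secreted protein, stood between 6.70 and 7.34 in CD34+ cells and between 2.03 and 2.08 in the others. Sema3e, a semaphorin that signals through plexin D1, lay between 6.62 and 7.34 against 1.74 to 2.01. Ptn, the heparin-binding growth factor pleiotrophin, was at 8.66, 8.79 and 8.75 against 3.46, 4.26 and 4.58, a 24.8-fold difference from a level already above silence. Pcolce2, an enhancer of procollagen processing, was at least 18.8-fold higher.

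The other genes among the largest rises were an epidermal crosslinking enzyme, a stress keratin and several less studied genes. Tgm5, a transglutaminase, was at 7.76, 7.67 and 7.68 against 2.48, 2.19 and 2.53, at least 37.9-fold higher. Krt6a, a keratin of the companion layer and of wounded epidermis with a close copy in Krt6b, was at 6.07, 6.53 and 7.22 against 2.06, 1.74 and 1.37. Nt5e, the ecto-enzyme that makes extracellular adenosine, was at least 15.8-fold higher, Thsd1 at least 17.7-fold and Pdzrn4 at least 13-fold. Nrep rose 28.3-fold, with its remaining basal arrays spread from 2.26 to 3.60.

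In the other direction, Il1r2, the decoy receptor that binds interleukin 1 without signalling, had the largest fitted change, with CD34+ values under the silent level. It was at 1.55, 1.53 and 2.19 in CD34+ cells and at 6.37, 6.15 and 7.18 in remaining basal cells, at least 17.2-fold lower in CD34+ cells (adjusted p = 5.01e-05). Ikzf2, the Ikaros-family zinc-finger factor Helios, was at 2.40, 2.41 and 2.50 against 6.77, 6.53 and 6.70, at least 18.4-fold lower with all 15 probe sets separated. Rab27a, a small GTPase of vesicle secretion, was at 2.23, 2.11 and 1.87 against 5.88, 6.24 and 6.46. Plbd1, a phospholipase B domain protein, was at least 16.7-fold lower. For these genes no CD34+ array exceeded 2.50, close to the silent level.

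Il12rb2 and Il20ra, chains of cytokine receptors, were also among the 15 largest falls. Il12rb2, of the interleukin 12 receptor, was at 1.74, 2.11 and 1.66 against 5.59, 5.38 and 6.57. Il20ra, of the interleukin 20 receptor, was at 2.24, 1.89 and 1.77 against 5.25, 5.53 and 6.18. The calls of Il12rb2, Il20ra and Cd55, a complement-regulating surface protein, were lost with the brightest probe set (adjusted p = 0.196, 0.0939 and 0.85). Serpinb2, a protease inhibitor of stressed keratinocytes, was at 2.90, 3.32 and 2.95 against 6.48, 6.75 and 7.49, or 14.4-fold lower. Gabrp, a GABA-A receptor subunit, was at least 10.1-fold lower and Clca2, a calcium-activated chloride channel regulator, at least 12.3-fold. Oas1f, of the 2-5A synthetase family that senses double-stranded RNA, was at least 8.32-fold lower; its relatives are near-identical in places and their signals may mix.

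**Figure D2:**
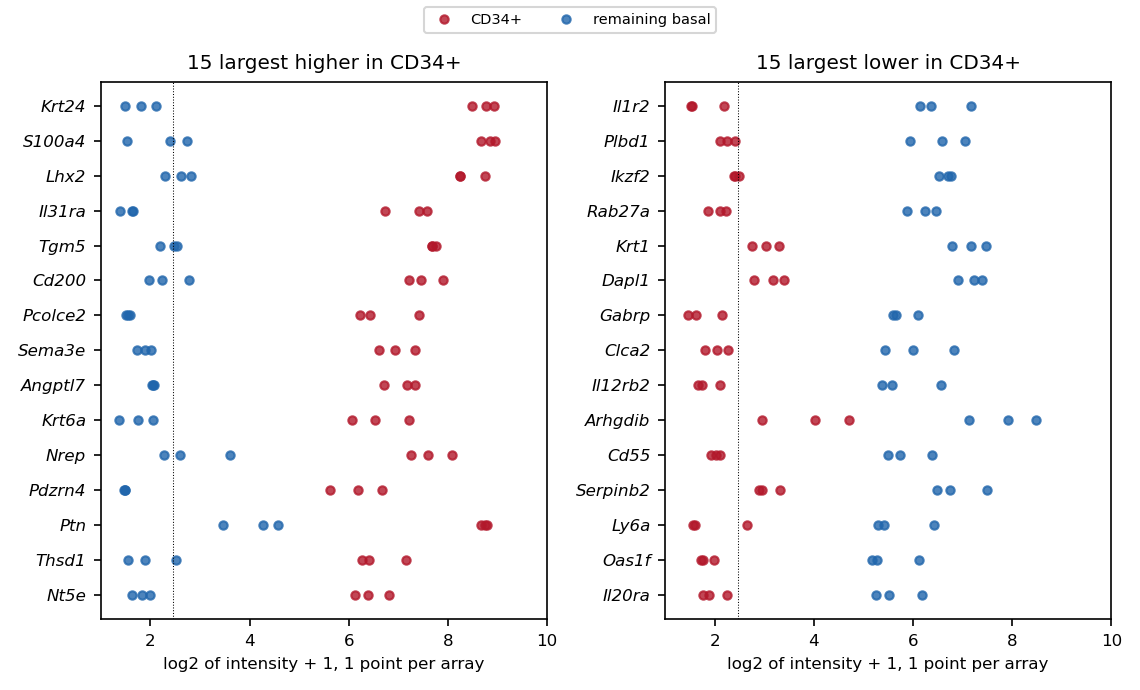
Levels (log2 of intensity plus 1, horizontal axes) of the 15 genes with the largest rise and the 15 with the largest fall in CD34+ cells, 1 point per array, 3 arrays per population; the dotted line is the silent level of 2.46. Red and blue points do not overlap for any gene shown, and most of the low groups lie near or under the dotted line.

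Promoter windows from RefSeq on build GRCm38.p6, the 250 bases before a start site, were found for 13 of the 15 genes with the largest rise and 12 of the 15 with the largest fall; the array values themselves do not use coordinates. They were searched on both strands for TAATTA (bound by LIM homeodomain proteins), CTTTGNT (TCF/LEF) and TGANTCA (AP-1), which share no match here. TAATTA occurred in 1 of 15 windows of higher genes, in 0 of 16 of lower genes and in 4.84% of 32851 promoters. CTTTGNT occurred in 1 of 15, 1 of 16 and 16% of them. TGANTCA occurred in 0 of 15, 3 of 16 and 6.75%, but windows of 2 starts of Serpinb2 share 1 match. The windows below are shown because each holds a match, in capitals, next to a gene described above. They lie on the plus strand at chr2:38351058-38351307 (the downstream start of Lhx2), chr1:107511173-107511422 (Serpinb2) and chr10:19712337-19712586 (Il20ra), and the matches start 16, 94 and 164 bases before the start site. A match is a description of the letters and not evidence of binding.
Lhx2: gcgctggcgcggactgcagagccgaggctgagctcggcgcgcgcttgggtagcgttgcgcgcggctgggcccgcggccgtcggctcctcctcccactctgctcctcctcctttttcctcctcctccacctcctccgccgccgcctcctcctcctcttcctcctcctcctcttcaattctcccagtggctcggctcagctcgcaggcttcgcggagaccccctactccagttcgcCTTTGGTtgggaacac
Serpinb2: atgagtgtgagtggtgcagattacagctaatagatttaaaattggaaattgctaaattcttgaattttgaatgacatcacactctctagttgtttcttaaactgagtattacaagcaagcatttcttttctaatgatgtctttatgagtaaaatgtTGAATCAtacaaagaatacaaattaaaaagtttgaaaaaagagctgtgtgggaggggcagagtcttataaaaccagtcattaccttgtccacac
Il20ra: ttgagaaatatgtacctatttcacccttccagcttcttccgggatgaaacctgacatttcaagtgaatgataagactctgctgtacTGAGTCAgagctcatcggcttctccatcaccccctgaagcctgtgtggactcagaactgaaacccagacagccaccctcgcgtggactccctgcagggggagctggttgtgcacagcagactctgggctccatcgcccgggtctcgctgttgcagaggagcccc

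The Gata6 reporter populations place these genes in a wider range, given as values without a test. With integrin on the surface, Gata6 reporter cells had means of 2.01 for Krt24, 1.63 for Il31ra and 2.11 for Angptl7; without it, the means were 1.81, 1.60 and 2.21, all under the silent level. The mean of Cd200 was 6.56 with integrin and 7.50 without, and that of Cgnl1, a tight-junction adaptor, 5.82 and 6.07. Fst, the activin inhibitor follistatin, had a mean of 7.64 in Gata6+Itga6+ cells. Among lower genes, the mean of Il1r2 was 2.65 and 1.65 in the reporter populations, whereas that of Dapl1, a gene of differentiating epithelium, was 7.31 and 8.29 and that of Plbd1 6.24 and 6.23.

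**Figure D3:**
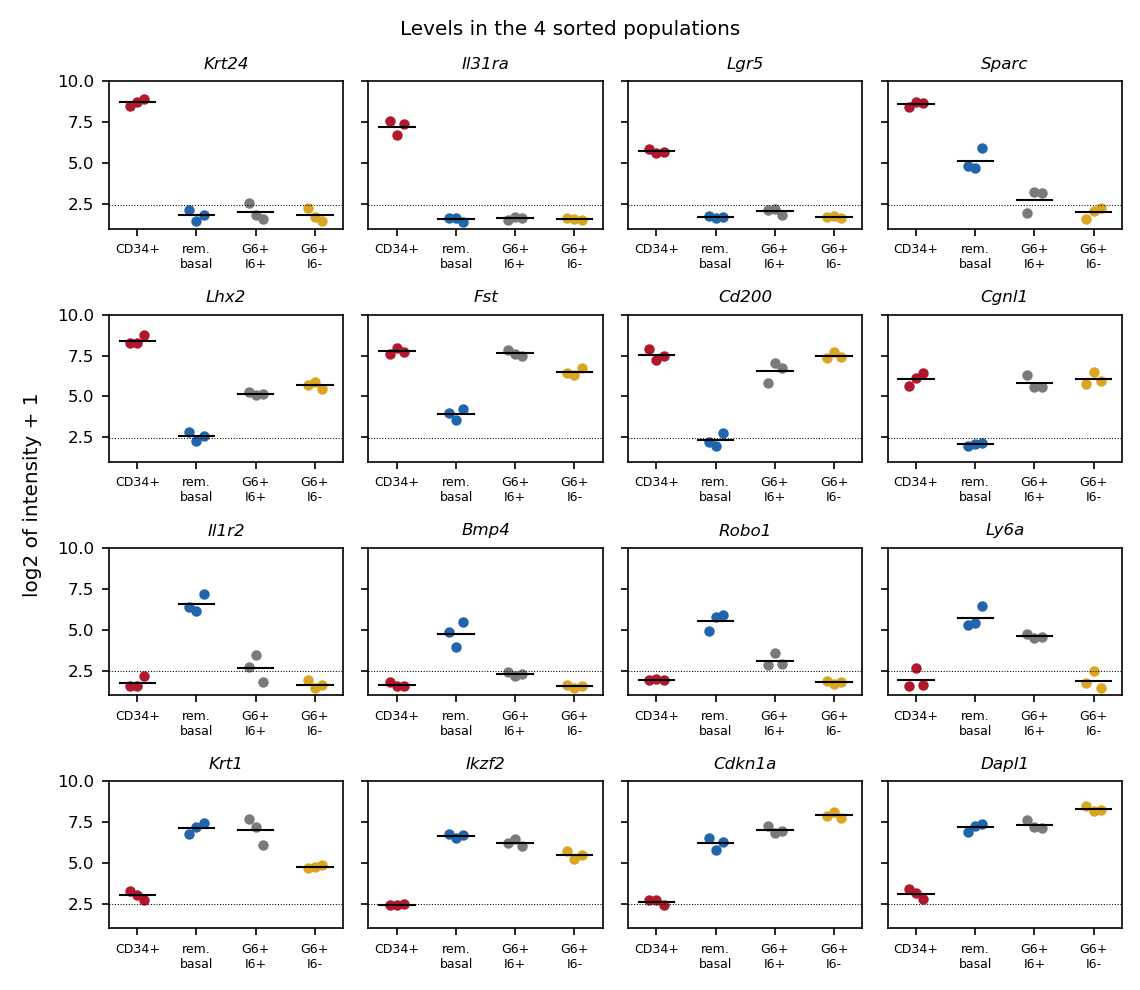
Levels of 16 genes (log2 of intensity plus 1, vertical axes) in CD34+ cells, remaining basal cells (rem. basal), Gata6+Itga6+ cells (G6+ I6+) and Gata6+Itga6- cells (G6+ I6-); points are arrays (3 per population), bars are means and the dotted line is the silent level of 2.46. For Krt24, Il31ra and Lgr5 the CD34+ points stand above all others, while for Cd200 and Cgnl1 the remaining basal points stand below all others.

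Of 28 measured genes listed for bulge stem cells, 22 were called higher in CD34+ cells and none lower, with a median change of 2.68 beside 0.02 over all genes; 20 of the 22 were called in every fit that left out 1 array, and 16 genes of the list were higher with the brightest probe set. Of all genes, 3.32% were called higher and 1.67% lower. At an unadjusted p under 0.05, 25 genes of the list were higher and none lower in limma. The share of all genes at that unadjusted threshold is not given here. Lgr5, an R-spondin receptor and follicle stem cell marker, was at 5.88, 5.65 and 5.70 against 1.78, 1.64 and 1.68, at least 9.72-fold higher. Its groups were separated at 27 of 29 probe sets, but its brightest probe set gave -0.20 (adjusted p = 0.799). Aspn, the matrix protein asporin, was at 6.01, 6.74 and 6.72 against 1.79, 1.89 and 2.18. Ccn2, a matricellular protein also known as connective tissue growth factor, was at 7.38, 7.26 and 7.08 against 3.00, 3.09 and 2.96, or 18.6-fold higher.

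Besides Lhx2, further transcription factors on the bulge list were measured. Nfatc1, which holds bulge cells at rest, was at 4.23, 5.18 and 4.76 against 2.57, 2.42 and 2.86 (change 2.11, SE 0.27, adjusted p = 0.00122). Sox9, needed to keep the bulge, was at 5.83, 5.68 and 5.47 against 2.24, 2.62 and 3.59. Its adjusted p was 0.0165 with all arrays, and 0.0526, 0.0509, 0.0657 and 0.0632 without CD34+ replicates 1 and 2 and remaining basal replicates 1 and 2. Tbx1 was at 3.48, 3.05 and 4.28 against 1.91, 2.13 and 2.37, with an adjusted p of 0.0126 that rose to 0.0534 without remaining basal replicate 1 and to 0.956 with the brightest probe set. Hopx, a homeodomain-only protein of quiescent follicle cells, did not pass the test (change 1.03, adjusted p = 0.0682), nor did the Wnt inhibitor Wif1 (0.54, adjusted p = 0.0707).

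Among 40 follicle and epidermal transcription factors, 10 were called higher and 4 lower in CD34+ cells, beside 3.32% and 1.67% of all genes. Tfap2b, an AP-2 factor, was at 8.05, 8.15 and 8.17 against 5.35, 5.75 and 5.50, a 6.02-fold rise; its relative Tfap2c went the other way, at 1.93, 2.50 and 2.44 against 3.48, 4.11 and 4.07. Nfib, a nuclear factor I protein of follicle stem cells, was 3.89-fold higher. Foxp1, which restrains the entry of bulge cells into the cycle, was at 5.71, 5.75 and 6.18 against 3.46, 2.65 and 3.31, though not with the brightest probe set (adjusted p = 0.625). Klf5, a zinc-finger factor of proliferating epithelia, was at 4.44, 4.55 and 4.71 against 7.10, 7.61 and 8.03, 8.07-fold lower. Gata3, a regulator of epidermal and inner root sheath differentiation, was 3.7-fold lower and Cux1, a homeodomain repressor, at least 3.75-fold. All 4 lower factors, and 7 of the 10 higher ones, were also called in each fit without 1 array.

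Of 37 Wnt ligands and receptors, 6 were called higher and 4 lower, beside 3.32% and 1.67% of all genes. The median change was 0.01. The higher genes were all receptors or co-receptors, and 4 of the 6 were called in every fit that left out 1 array. Lgr4, also a receptor for R-spondins, was at 5.83, 6.17 and 6.37 against 2.50, 2.86 and 3.18, and Fzd3, a frizzled receptor, at 6.63, 6.09 and 6.44 against 2.78, 1.79 and 3.57. The lower genes were all secreted ligands, Wnt5a, Wnt10a and Wnt16 with the R-spondin Rspo3. Their levels were low: Wnt5a lay under the silent level in CD34+ cells and at 2.33, 2.34 and 2.48 in remaining basal cells. Its mean was thus under the silent level in both populations. Of the ligands, Wnt5a alone was called in every fit that left out 1 array, and the count of lower genes fell from 4 to 1 without any 1 of the CD34+ arrays, remaining basal replicate 1, Gata6+Itga6+ replicate 2 or Gata6+Itga6- replicate 3, and to 2 without remaining basal replicate 3 or Gata6+Itga6+ replicate 3.

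Secreted Wnt antagonists and targets split. Sfrp1, a frizzled-related protein that binds Wnts, was at 8.62, 8.61 and 8.80 against 4.79, 4.70 and 5.27, 13.5-fold higher, and Dkk3, of the dickkopf family, was at 3.44, 4.55 and 4.67 against 1.69, 1.74 and 1.68. Apcdd1, a membrane inhibitor of Wnt receptors and itself a Wnt target, was at 2.56, 2.82 and 2.26 against 4.13, 5.39 and 4.78, 4.66-fold lower. Axin2, the usual readout gene of canonical Wnt signalling, was at 3.68, 3.45 and 3.43 against 4.86, 4.88 and 5.41, 2.9-fold lower. With the brightest probe set Sfrp1, Dkk3 and Axin2 were not called (adjusted p = 0.753, 0.28 and 0.169). Of 12 nuclear effectors, only Tcf7l2 was called, 4.3-fold higher, beside 5% called among all genes. Ctnnb1, which encodes beta-catenin, differed by 0.89 (SE 0.24, adjusted p = 0.0711), and Lef1 was under the silent level on all 6 arrays.

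The BMP and TGF-beta pathway was divided into antagonists with latency proteins, ligands, and receptors with effectors. Of 18 antagonists and latency proteins, 9 were called higher and none lower, beside 3.32% and 1.67% of all genes. The median change was 0.51, and 7 of the 9 were called in every fit that left out 1 array. Fst was at 7.59, 7.95 and 7.73 against 3.97, 3.55 and 4.23, 14.3-fold higher. Grem1, a secreted BMP antagonist, was at 5.81, 5.69 and 7.01 against 1.77, 1.74 and 1.69, at least 13.1-fold higher, from 2 probe sets. The latent TGF-beta binding proteins Ltbp1, Ltbp2 and Ltbp3, which store TGF-beta in the matrix, were higher by 2.06, 2.14 and 1.18. With the brightest probe set Fst and Grem1 alone of the 9 were called.

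Of 13 BMP and TGF-beta ligands, only Bmp4 was called, beside 5% of all genes. It was at 1.79, 1.54 and 1.57 in CD34+ cells and at 4.83, 3.93 and 5.45 in remaining basal cells, at least 4.84-fold lower, with separated groups at 5 of 6 probe sets but not at the brightest (adjusted p = 0.811). Of 22 receptors and effectors, 3 were called higher and 1 lower, beside 3.32% and 1.67% of all genes. Tgfbr3, a receptor, was the lower gene (change -1.40). Its call was lost with the brightest probe set and with these 6 arrays alone (adjusted p = 0.457 and 0.161). The higher genes were Id1, Id2 and Id3, early targets of BMP signalling. Id2 was at 5.31, 5.74 and 6.32 against 2.06, 2.72 and 2.77, and Id3 at 4.13, 4.51 and 5.80 against 2.74, 2.49 and 2.58. Id1 was also called, but its adjusted p of 0.0136 became 0.0559 without remaining basal replicate 1 and 0.188 with the brightest probe set. With these 6 arrays alone, Id1 and Id3 were not called (adjusted p = 0.121 and 0.0601). The receptor Bmpr1a overlapped between the populations (change 0.10, adjusted p = 0.96).

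Hedgehog receptors and effectors were higher in CD34+ cells at 5 of 13 measured genes, with none lower and a median change of 0.64. Of all genes, 3.32% were called higher and 1.67% lower. At an unadjusted p under 0.05, 7 genes of the list were higher and none lower in limma. The share of all genes at that unadjusted threshold is not given here. Boc and Cdon, co-receptors of hedgehog ligands, were at 5.95, 5.59 and 5.88 against 2.68, 3.30 and 2.73 and at 4.87, 5.32 and 5.40 against 3.65, 3.28 and 3.64. Gli2, the main activator of the pathway, was at 4.18, 4.62 and 4.90 against 2.27, 2.30 and 2.07. Gli1, a target as well as an effector, was at 2.83, 3.59 and 3.54 against 2.29, 2.26 and 2.33, above the silent level on every CD34+ array and under it on the others; its brightest probe set gave -0.20 (adjusted p = 0.788). With the brightest probe set 1 of 13 genes was called, Gas1 (named after its value was seen) and not Boc, Cdon or Gli2 (adjusted p = 0.969, 0.295 and 0.718), and with these 6 arrays alone 3 of 13. Ptch1, the receptor and a target, was at 4.21, 2.78 and 3.94 against 2.91, 3.18 and 2.92, with overlapping groups.

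Notch and FGF genes are read against the 5% called among all genes. Of 22 Notch genes, the ligand Jag1 (6.44, 6.19 and 6.54 against 3.35, 3.36 and 4.54) and Numb, an inhibitor of Notch, were higher, by 2.64 and 1.22; Numb was not called with the brightest probe set (adjusted p = 0.284). Notch1 was lower on each CD34+ array but did not pass the test (change -0.86, adjusted p = 0.0639). Of 19 FGF genes, 3 were higher and 1 lower, of which 2 higher and none lower were called in every fit that left out 1 array. Fgf18, a ligand that prolongs telogen, was at 5.52, 5.94 and 5.67 against 1.90, 2.27 and 1.61, and the receptor Fgfr1 at 5.57, 6.39 and 6.41 against 2.77, 2.38 and 2.80. Fgf18 was called in every fit without 1 array but not with the brightest probe set (adjusted p = 0.653).

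**Figure D4:**
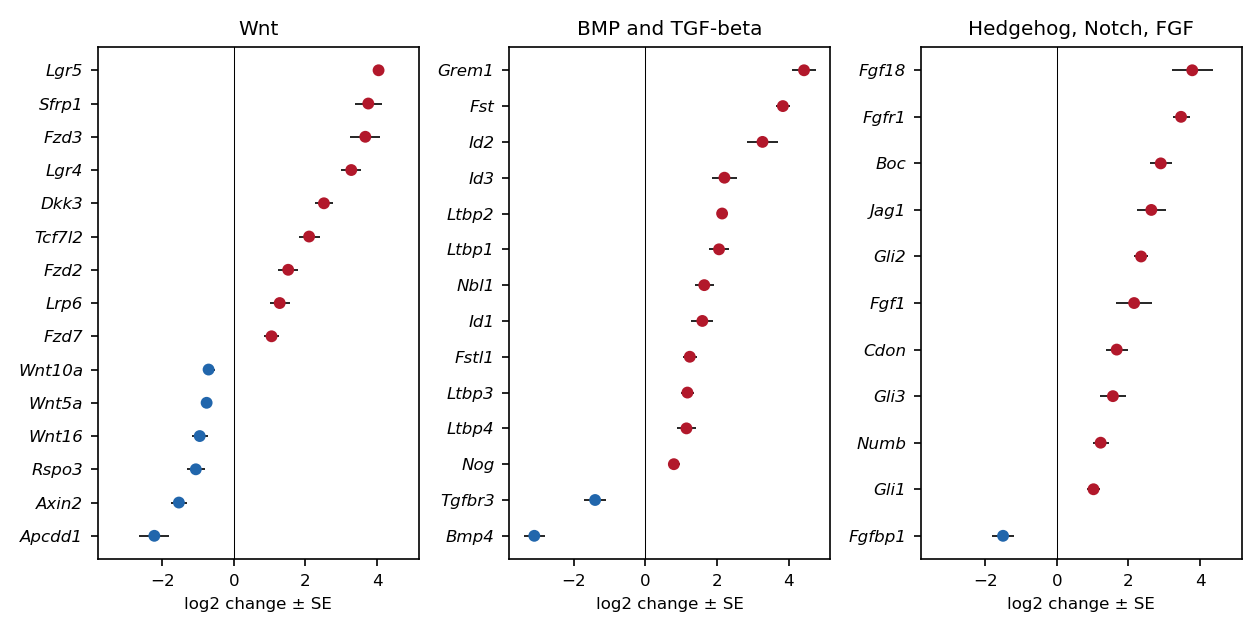
Change in level (log2, CD34+ minus remaining basal cells, horizontal axes) of every called gene on the Wnt, BMP and TGF-beta, and hedgehog, Notch and FGF lists; points are estimates from 3 arrays per population, bars are standard errors, red is higher and blue lower in CD34+ cells. Receptors such as Lgr4 and Fzd3 and secreted inhibitors such as Fst and Sfrp1 are on the right, and Bmp4, Apcdd1 and Axin2 are on the left.

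Matrix genes were a further group with many rises. Of 34 matricellular and matrix proteins, 12 were called higher, all 12 also in every fit that left out 1 array, and 3 lower. Of all genes, 3.32% were called higher and 1.67% lower. Sparc, a collagen-binding glycoprotein, was at 8.44, 8.74 and 8.67 against 4.83, 4.69 and 5.95, 11-fold higher. Postn, the fasciclin-domain protein periostin, was at 9.53, 9.51 and 9.43 against 5.87, 6.27 and 7.11, 8.4-fold higher with all 22 probe sets separated. Col6a1, a chain of microfibrillar collagen, was at 5.17, 5.08 and 5.55 against 2.21, 2.39 and 2.34, and Timp2, an inhibitor of matrix metalloproteinases, at least 12.8-fold higher. Smoc2, a relative of Sparc, was at 2.51, 2.55 and 3.05 against 4.64, 4.34 and 5.64, 4.51-fold lower. Efemp1, a fibulin, was at least 4.19-fold lower, but not with the brightest probe set (adjusted p = 0.655) or with these 6 arrays alone (adjusted p = 0.0549).

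Of 25 hemidesmosome and basement membrane genes, 4 were higher and 1 lower, beside 5% called among all genes. The lower gene, the laminin chain gene Lama3 (change -0.42), kept its call when CD34+ replicate 2 was left out and lost it when any other single array was (adjusted p = 0.0509 to 0.136) and not with the brightest probe set, and 3 of the 4 higher genes were called in every such fit. Egfl6, a matrix protein that bulge cells lay down around the arrector pili attachment, was at 7.16, 7.72 and 7.46 against 2.90, 3.84 and 4.45, 13.1-fold higher. Npnt, the integrin ligand nephronectin of the same site, was 3.75-fold higher, but not with these 6 arrays alone (adjusted p = 0.0511). Of 13 integrins other than the sort gene, Itgb8 and Itgb6, which activate latent TGF-beta, were called: Itgb8 was at 4.97, 4.75 and 4.77 against 2.25, 2.80 and 1.95. Neither was called with the brightest probe set (adjusted p = 0.257 and 0.905). Itgb1 and Itgb4, partners of Itga6 in basal cells, overlapped between the populations and were not called (changes 0.75 and 0.52).

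Cell-cell junction genes moved in both directions, 6 of 28 higher and 2 lower, beside 3.32% and 1.67% of all genes. Cgnl1 was at 5.67, 6.15 and 6.42 against 1.99, 2.11 and 2.12, with 17 of 20 probe sets separated, while its brightest probe set gave -0.22 (adjusted p = 0.786). Dsg2, a desmosomal cadherin, was at 2.23, 2.40 and 2.75 against 4.45, 4.70 and 5.46, and Pkp1, a desmosomal plaque protein, 5.02-fold lower. Leaving out CD34+ replicate 2 or 3 or remaining basal replicate 2 reduced the 6 higher genes to 2. With the brightest probe set, and also with these 6 arrays alone, 1 gene of the list was called higher and 2 lower.

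Of 43 axon guidance and neurotrophic genes, 8 were higher and 4 lower, beside 3.32% and 1.67% of all genes. Without CD34+ replicate 3 the 8 became 5. Beside Sema3e and Ptn, the semaphorin receptor Plxna2 was at 6.16, 6.18 and 6.12 against 2.55, 2.58 and 3.33, with all 41 probe sets separated. The ephrin ligand Efnb2 was 4.17-fold higher. The Slit receptors went in opposite directions: Robo1 was at 1.90, 1.97 and 1.91 against 4.90, 5.78 and 5.91, whereas Robo2 was at 4.00, 3.55 and 3.98 against 1.81, 2.05 and 2.02. Sema3d and Sema3f, secreted semaphorins, were at least 4.12-fold and 2.02-fold lower. Plxna2, Efnb2, Robo1, Robo2, Sema3d and Sema3f were called in every fit that left out 1 array and with the brightest probe set.

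More genes of epidermal differentiation fell than rose in CD34+ cells, with 12 of 36 called lower and 3 higher (median change -0.24). Of all genes, 1.67% were called lower and 3.32% higher. With the brightest probe set 10 genes of the list were lower and 5 higher. Krt1, the first keratin of spinous cells, was at 3.30, 3.04 and 2.75 against 6.79, 7.17 and 7.47, 17.3-fold lower. Its partner Krt10 was at 7.42, 6.90 and 6.39 against 9.25, 9.13 and 9.52, 5.27-fold lower, with all 10 probe sets separated but an adjusted p of 0.0544 for the brightest. Dsg1a, a desmosomal cadherin of upper layers with close copies in Dsg1b and Dsg1c, was 11.7-fold lower, Mt4, a metallothionein of stratified epithelium, at least 6.19-fold and Krt77 5.69-fold. Zfp750, a zinc-finger regulator of terminal differentiation, was 5.71-fold lower, though not with the brightest probe set (adjusted p = 0.06). Since both populations were gated on Itga6, which suprabasal cells lack, these transcripts were measured among cells sorted as basal; the share of suprabasal cells in each sort was not tested.

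Some genes of the same list rose. Beside Tgm5, Calml3, a calmodulin-like protein of keratinocytes, was at 6.98, 7.02 and 7.04 against 3.72, 3.87 and 3.72, 9.46-fold higher. Of 17 interfollicular basal genes, Aqp3, a water and glycerol channel, was 11.4-fold higher in CD34+ cells and Tfap2b was higher as given above, while Ly6a, Fgfbp1 and Wnt10a were lower. Without CD34+ replicate 1 or 3 or remaining basal replicate 3, Ly6a alone of the last 3 was called. Aqp3 was not called with the brightest probe set (adjusted p = 0.141). Of 11 upper follicle genes 1 was called, but not in every fit that left out 1 array, and of 15 sebaceous gland genes 1 was higher and 2 lower, of which 1 each way was called in every such fit. Among all genes 5% were called.

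Proliferation genes that passed the test were all lower in CD34+ cells. Of 21 genes of S phase and replication, 3 were called lower and none higher (median change -0.70), and of 23 mitosis genes 5 were lower and none higher (median -0.67). Of all genes, 1.67% were called lower and 3.32% higher. Means were under the silent level in both populations for 8 of the S phase genes and 14 of the mitosis genes. The mean level of the mitosis list was 1.73 to 1.78 over CD34+ arrays and 2.30 to 2.81 over remaining basal arrays. Top2a, the topoisomerase of dividing cells, was at 1.65, 1.80 and 1.54 against 3.03, 3.97 and 4.36, and Mki67, the Ki-67 antigen, at 1.77, 1.97 and 2.06 against 3.28, 3.52 and 4.47, so both were under the silent level in CD34+ cells. Mcm6, a subunit of the replicative helicase, was at 3.03, 3.18 and 3.48 against 4.40, 4.88 and 5.23, though not called with the brightest probe set (adjusted p = 0.495). At an unadjusted p under 0.05 the lower genes were 12 and 14, with none higher in limma. The share of all genes at that unadjusted threshold is not given here. The S phase count was 1 to 8 over the other settings and rose to 6 without CD34+ replicate 2 and to 5 without remaining basal replicate 1. The mitosis count was 4 to 12 over the other settings and fell to 3 without CD34+ replicate 1 or 3 or remaining basal replicate 3 and rose to 8 without Gata6+Itga6+ replicate 1.

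No inhibitor of the cell cycle passed the test upwards. Cdkn1a, which encodes the inhibitor p21, was at 2.71, 2.71 and 2.41 in CD34+ cells and at 6.55, 5.81 and 6.31 in remaining basal cells, 12.3-fold lower (change -3.62, SE 0.19, adjusted p = 2.34e-06). Cdkn1b, which encodes p27, was at 3.99, 3.79 and 4.44 against 3.78, 2.99 and 3.49 and was not called (adjusted p = 0.299). Of the 11 genes of this list 2 were called lower, Cdkn1a and the cyclin Ccnd2, and none higher, beside 5% called among all genes. Ccnd2 (adjusted p = 0.0473) kept its call without remaining basal replicate 1 or Gata6+Itga6- replicate 3 and lost it without any other single array (0.0508 to 0.158), and was not called with these 6 arrays alone (0.144). Of those not called, 2 were higher at an unadjusted p under 0.05 in limma and cyclin D3 (Ccnd3, named after its value was seen) was called higher with the brightest probe set. In the Gata6 reporter populations the mean of Cdkn1a was 7.01 and 7.92.

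Of 30 measured cytokines and cytokine receptors, 9 were called lower, 1, Il31ra, higher and 20 neither (median change -0.50). Of all genes, 1.67% were called lower and 3.32% higher. In every fit that left out 1 array, 6 of the 9 were called. Beside Il1r2, Il12rb2 and Il20ra, Tnfrsf19, a receptor of the TNF receptor family, was at 2.61, 1.81 and 1.88 against 4.69, 4.30 and 5.60, at least 5.28-fold lower. Il34, a ligand of the receptor that maintains Langerhans cells, was at 2.78, 2.94 and 2.77 against 5.09, 4.51 and 5.70, and Il6ra, the interleukin 6 receptor chain, at least 4.26-fold lower. With the brightest probe set 2 of the 30 were called lower, and after quantile normalization 15. Osmr, the partner chain of Il31ra, was at 4.08, 3.87 and 5.10 against 4.76, 4.85 and 4.77, overlapping between populations (change -0.44, adjusted p = 0.586).

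Immediate-early genes, which cell dissociation can induce, also differed between the sorts. Of 24 genes of dissociation stress, 7 were called lower in CD34+ cells and 1 higher (median change -0.41), beside 1.67% and 3.32% of all genes. Egr1 was at 5.54, 6.11 and 5.95 against 7.25, 8.14 and 7.84, and Dusp1, a phosphatase of MAP kinases, at 6.25, 5.57 and 5.62 against 7.62, 7.71 and 7.93. Zfp36, a protein that destabilizes cytokine mRNA, was 4.29-fold lower. The mean level of the list ran from 3.50 to 3.82 over CD34+ arrays and from 3.95 to 4.38 over remaining basal arrays. With the brightest probe set 4 genes were called lower, not Egr1 or Zfp36 (adjusted p = 0.0544 and 0.0729). The count of 7 fell to 4 without CD34+ replicate 1 and to 3 without CD34+ replicate 3 or remaining basal replicate 2. The part of this difference in the falls of cytokine, Serpinb2 and Cdkn1a levels was not tested.

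Lists of markers for cells that a basal sort could carry along were mixed, beside 3.32% of all genes called higher and 1.67% lower. All 8 Merkel cell and all 8 smooth muscle genes, 14 of 16 endothelial, 15 of 17 Langerhans cell and macrophage and 11 of 12 T cell genes had means under 2.46 in both populations, and none on these lists was called by limma; at an unadjusted p under 0.05, Csf1r and Thy1 were lower, and with the brightest probe set Epcam and Itgam were called higher; these 4 were named after their values were seen. The endothelial markers Pecam1, Cdh5 and Kdr lay between 1.54 and 2.02 on the CD34+ arrays. Of 17 dermal fibroblast genes, 5 were higher in CD34+ cells and none lower: Sparc, Col6a1, Col6a2, Fbln1 and Col1a2. Only 3 were higher with the brightest probe set, not Col6a2 or Col1a2 (adjusted p = 0.308 and 0.771), and Col1a2 was not called without any 1 of the CD34+ arrays or remaining basal replicate 1 or 3 (adjusted p = 0.0509 to 0.0658). The mean level of that list was 2.78 to 2.93 over CD34+ arrays and 2.17 to 2.24 over the others. The defining fibroblast genes Dcn, Pdgfra and Col3a1 were under the silent level on all 6 arrays, while Col1a1 was at 2.91, 2.61 and 2.96 against 2.35, 2.28 and 2.33 (change 0.51, adjusted p = 0.076). Of 10 melanocyte genes, Mitf and Mlana were called higher; Mlana (adjusted p = 0.0274) was not called with the brightest probe set (0.869) or the mean of probe sets (0.234), nor without CD34+ replicate 1 or 2 or remaining basal replicate 1 or 2 (0.0823, 0.0931, 0.099 and 0.0882). Mitf, the master regulator of melanocytes, was at 5.77, 5.86 and 5.69 against 2.55, 2.94 and 3.08, whereas the pigment enzymes Dct and Tyrp1 were under the silent level on all 6 arrays.

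**Figure D5:**
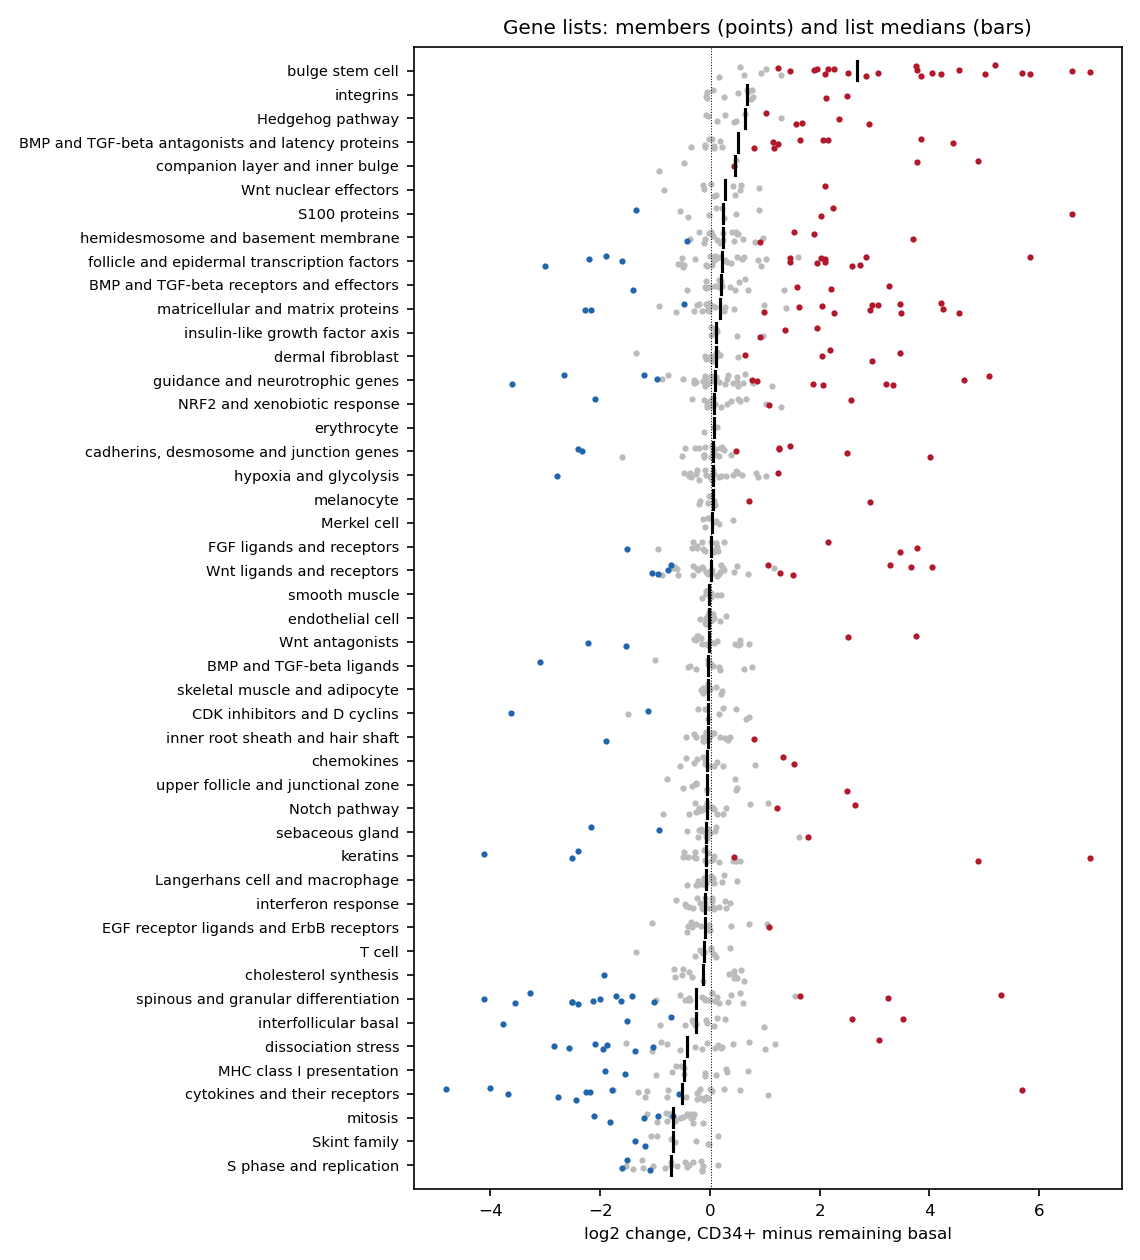
Change in level (log2, CD34+ minus remaining basal cells, horizontal axis) of every measured member of the 47 gene lists; points are genes (red called higher, blue called lower, grey not called), bars are list medians, and the dotted line is the median of all genes. The bulge list has the highest median, 2.68, and the lists of S phase, Skint genes, mitosis and cytokines the lowest; vertical scatter within a list has no meaning.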

How the data were processed

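RNA of sorted cells was amplified with NuGEN kits and hybridized to exon arrays, per the labels' protocols. The authors deposited intensities of 235932 exon probe sets, made by RMA in Affymetrix Power Tools on build mm9; this is per the submitters' processing notes, and tool versions are not given in the sources used here. The scale of the deposited intensities was not stated and was read as linear from the values; every level and fold rests on this. RMA aligns arrays, which shrinks any shift common to most genes, but the deposited arrays still differed in brightness. Over probe sets with 1 gene symbol, the upper quartile of intensity ran from 13.94 to 17.82 on CD34+ arrays. On remaining basal arrays it ran from 12.21 to 16.21.

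From these, log2 of the intensity plus 1 was taken, and the median over the probe sets with 1 gene symbol (221205) was the gene's level. Of the symbols, 15377 were current in a RefSeq table of GRCm38.p6, 2489 were updated and 42 kept. The fit used limma 3.58.1 in R 4.3.3 on all 12 arrays with 1 mean per population (prior degrees of freedom 2.12, residual 8). With 3 against 3 samples an exact permutation test cannot go below 0.1 and was not used. The number of arrays limits the precision. The fit was also run on simulated arrays with changes of known size, and the outcome is not given here.

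The members, the 47 gene lists (868 genes, 818 measured) and the rule for named genes were chosen with earlier results of these data known, and lists got no test of their own. Named were the sort genes, the 15 largest called changes each way without overlap of replicates (passing over predicted gene models), at most 6 called members per list and direction and 3 uncalled ones, and the cell type markers. Alternatives were other summaries of probe sets, other pseudocounts, a filter on dim genes, quantile normalization, array brightness as a covariate, the 6 arrays alone, blocks for the replicate number and for the letter in the array name, other variance moderation, array weights, and each array left out.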

Additional observations from a re-analysis of the deposited data

How the results depend on the processing

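Against 892 called genes, 1513 were called with the mean of probe sets (997 higher, 516 lower), 571 with these 6 arrays alone (376 and 195), and 548 were lower after quantile normalization; the other settings stayed within 1.5 times of each count. With 1 array left out the counts ran from 673 to 906, with 408 to 660 higher and 227 to 311 lower. The replicate number as a block gave 886 genes (591 higher, 295 lower), and the letter in the array name 876 (592 and 284). Same-numbered arrays deviated from their group means with correlations of 0.104, 0.00119 and 0.198, and differently numbered arrays with correlations from -0.177 to 0.0961. The main fit did not pair samples by number, and whether the numbers pair them was not tested. With the brightest probe set the sign turned for Lgr5 (-0.20), Tbx1 (-0.077), Ltbp2 (-0.58), Nog (-0.068), Gli1 (-0.20), Itgb6 (-0.15), Lama3 (0.34), Col5a2 (-0.26), Cgnl1 (-0.22) and Junb (0.33), with none of these 10 past the threshold; the cause was not tested. With dim genes left out the median change of the genes kept was 0.12, against 0.02 over all genes. Calls between dim genes are limited by the signal over the silent level: 8745 genes lay under it in all populations.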

Other observations

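Of 12 measured S100 proteins, 3 were higher and 1 lower in CD34+ cells, beside 5% called among all genes; 2 higher and none lower were called in every fit that left out 1 array: S100a6 was at 9.51, 9.45 and 9.74 against 7.13, 7.36 and 8.12, a 4.09-fold rise beside that of S100a4. Of 12 genes of the insulin-like growth factor axis, 3 were higher (2 of them in every fit without 1 array), among them the binding protein Igfbp5 at 3.57, 3.23 and 4.68 against 1.92, 1.91 and 1.78, which was not called with these 6 arrays alone (adjusted p = 0.0556 in limma). Of 14 chemokines, 2 were called higher and none lower. Cxcl14, an epithelial chemokine, was 2.91-fold higher and was called in every fit without 1 array, and the other, Cxcl12, was not. Of 22 genes of the NRF2 and xenobiotic response, 2 were called higher and 1 lower. The lower gene was Ahr, the dioxin receptor, at 2.98, 2.37 and 2.75 against 4.42, 4.72 and 5.22, 4.25-fold lower. Ahr was called in every fit without 1 array, and the higher genes, Gclc and Cyp1b1, were not. Ndufa4l2, a hypoxia-induced mitochondrial protein, was 6.9-fold lower, at 2.39, 1.93 and 3.18 against 5.57, 5.44 and 4.86. Another 1 of the 26 genes of its list was called, higher in CD34+ cells.

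The lists of this paragraph are read beside 5% called among all genes (3.32% higher, 1.67% lower). None of 20 interferon response genes passed the threshold in limma, and 15 of them were under the silent level in both populations. At an unadjusted p under 0.05 in limma, 2 were lower, and the share of all genes at that unadjusted threshold is not given here. With the brightest probe set Bst2, named after its value was seen, was called higher. Of 14 genes of MHC class I presentation, all above the silent level in at least 1 population, the proteasome subunits Psmb8 and Psmb9 were lower (list median -0.47). Both calls were lost without CD34+ replicate 1 (adjusted p = 0.124 and 0.0634) or 2 (0.131 and 0.0503) or remaining basal replicate 2 (0.132 and 0.0633) or 3 (0.0625 and 0.0605) in limma, and that of Psmb8 also without remaining basal replicate 1, Gata6+Itga6+ replicate 3 or Gata6+Itga6- replicate 1 or 3 (0.0516 to 0.117). B2m, the invariant chain of MHC class I, was at 9.21, 9.08 and 9.46 against 9.53, 9.91 and 9.71 (change -0.47, adjusted p = 0.149 in limma). Of 15 cholesterol synthesis genes Hmgcs1 was lower (adjusted p = 0.0274 in limma), but not with the brightest probe set (0.13), with these 6 arrays alone (0.111), or without CD34+ replicate 2 or remaining basal replicate 2 or 3 (0.0921, 0.0871 and 0.0767).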
